A study of Mus musculus with 6 samples.

Results

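The SR proteins and their Tra2 relatives are splicing factors that carry a domain rich in arginine and serine. Here 10 of their genes were described in the brains of newborn mice given testosterone: Tra2a, Tra2b, Srsf12 and Srsf1 to Srsf7. Every probe set paired with exactly 1 of these genes was taken, which gave 35 probe sets for 9 genes, out of 34945 single-gene probe sets for 18193 genes. Srsf7 had no such probe set in the probe table used. The genes were chosen from measured values of the comparison of treated with vehicle arrays, in which Tra2a and Srsf12 stood among the larger differences over both sexes. That comparison is therefore given for the members as a description, without a test. The tests below concern differences between males and females, which did not choose the members.

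SR proteins bind short enhancer sequences in exons through their RNA recognition motifs and help the spliceosome to find the neighbouring splice sites. Their arginine-serine domains are phosphorylated by the SRPK and CLK kinases, which governs where in the cell the proteins sit and whether they are active. Tra2a and Tra2b, the mammalian counterparts of the Drosophila sex determination factor transformer-2, favour purine-rich exonic enhancers. Many SR and Tra2 genes limit their own output by splicing in a poison exon that sends the transcript to nonsense-mediated decay, so transcripts of these genes come in productive and unproductive forms. In the developing brain, splicing regulators of this kind help to set exon choice as neurons mature.

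The arrays held whole-brain RNA of C57BL/6 mice. Testosterone propionate (TP, an ester of testosterone) was injected into the abdominal cavity on postnatal day 2, as 1 mg in 20 µL of sesame oil. Vehicle mice received 20 µL of the oil alone, and all brains were taken on postnatal day 6. Each of the 6 Affymetrix arrays received RNA pooled from 6 mice, with 2 arrays of TP females, 2 of vehicle females, 1 of TP males and 1 of vehicle males. Array 2 of each female group is called a replica of array 1, and nothing says that it came from other mice, so the p-values below measure only the spread between these arrays. Values are log2 expression from RMA, as deposited. Their precision is set by how few arrays there are.

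The male TP array stood apart. Xist, the RNA that silences the inactive X chromosome in females, read 10.45 there, against 5.29 on the male vehicle array and 12.61 to 12.83 on the female arrays. The Y-linked genes Eif2s3y, Kdm5d and Uty read 9.12, 6.80 and 5.54 on the male TP array and at most 3.09 on any female array. Some results, such as the counts of member sets with groups apart and the adjusted sex tests, are therefore also given without it. Others are given only with it, among them the counts of sets lower in males, the correlations, the unadjusted counts and the intensity trend. Neuron markers were high on all 6 arrays, with a mean level of 12.56 to 12.65. The difference between probe sets at the 3' and 5' ends of control transcripts ranged from -0.34 to -0.22 for Gapdh and from 0.35 to 0.42 for beta-actin. For 18S RNA it was 0.10 on the male TP array and 0.34 to 0.50 on the others, and for pyruvate carboxylase 2.61 on the male TP array and 2.71 to 3.01 on the others.

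The promoters of 3 members are shown because the probe sets of these genes included the largest differences in each direction. They are the 250 bases before the RefSeq start of each gene on assembly GRCm38.p6, read 5' to 3' on the strand of the gene, with matches to 5 searched motifs in capitals. Tra2a lies on the minus strand with its window at chr6:49264053-49264302. Srsf12 lies on the plus strand at chr4:33209022-33209271, and Srsf5 on the plus strand at chr12:80945249-80945498.
Tra2a: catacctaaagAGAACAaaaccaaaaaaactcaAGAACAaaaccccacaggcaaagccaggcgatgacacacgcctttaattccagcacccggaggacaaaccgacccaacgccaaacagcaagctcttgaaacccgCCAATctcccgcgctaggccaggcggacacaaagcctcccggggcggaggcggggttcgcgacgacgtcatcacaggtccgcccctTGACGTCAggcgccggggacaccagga
Srsf12: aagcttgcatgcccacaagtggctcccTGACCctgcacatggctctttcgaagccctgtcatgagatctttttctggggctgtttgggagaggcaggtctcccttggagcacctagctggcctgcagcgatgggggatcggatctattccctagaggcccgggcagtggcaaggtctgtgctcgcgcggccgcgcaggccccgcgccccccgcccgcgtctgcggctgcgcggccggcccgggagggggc
Srsf5: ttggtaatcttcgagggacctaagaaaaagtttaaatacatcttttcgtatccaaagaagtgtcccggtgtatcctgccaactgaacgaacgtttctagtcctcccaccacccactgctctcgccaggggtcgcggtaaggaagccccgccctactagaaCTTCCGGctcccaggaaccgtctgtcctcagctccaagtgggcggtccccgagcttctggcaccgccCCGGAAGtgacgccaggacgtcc
The motifs, searched on both strands and none of them containing another, were the core hexamer of the androgen response element (TGTTCT), the core of the estrogen response element (GGTCA), the cyclic AMP response element (TGACGTCA), the CCAAT box (CCAAT) and an ETS factor site (CCGGAAG). The Tra2a window held the androgen hexamer at 217 and 239 bases before the start, in reverse complement, and this hexamer was in 16.1% of 32817 promoter windows. It also held the cyclic AMP element at 27 bases before the start, which 1.55% of windows had, and a CCAAT box at 113 bases, which 33.8% had. Srsf12 had the estrogen core at 223 bases, in reverse complement, a sequence found in 35.2% of windows. Srsf5 held the ETS site at 23 and 90 bases, and 6.9% of windows had it. The Tra2a window was 58.8% G and C with 20 CpG pairs, against medians of 52.4% and 6 over all windows. Among the other members, the androgen hexamer also stood in the Srsf6 window, the estrogen core in those of Srsf3 and Srsf4, the CCAAT box in those of Srsf2 and Srsf3, and the ETS site in those of Srsf4 and Srsf7. Letters that match a motif are a description of the sequence and show no binding.

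Tra2a, which promotes exon inclusion through purine-rich enhancers, had 6 probe sets that did not move alike. The brightest, 1454725_at, read 9.19, 9.51 and 9.02 on female vehicle arrays 1 and 2 and the male vehicle array, and 9.74, 9.62 and 9.52 on female TP arrays 1 and 2 and the male TP array. Each TP array was above each vehicle array, by a margin of 0.0044 log2 units between female vehicle array 2 and the male TP array. The TP difference was 0.33 in females and 0.50 in males, and 0.38 ± 0.10 (SE, n = 3 against 3) over both, which is 1.31-fold. Without female vehicle array 2 it was 0.49. Each SE, here and below, is the moderated one from limma, which draws the variance of a probe set toward that of all probe sets. It can be smaller or larger than the SE from the arrays of that set alone. The residual SD of this set in the additive model of sex and treatment was 0.15. In whole-brain RNA, fewer cells of a type and less RNA per cell cannot be told apart.

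**Figure D1:**
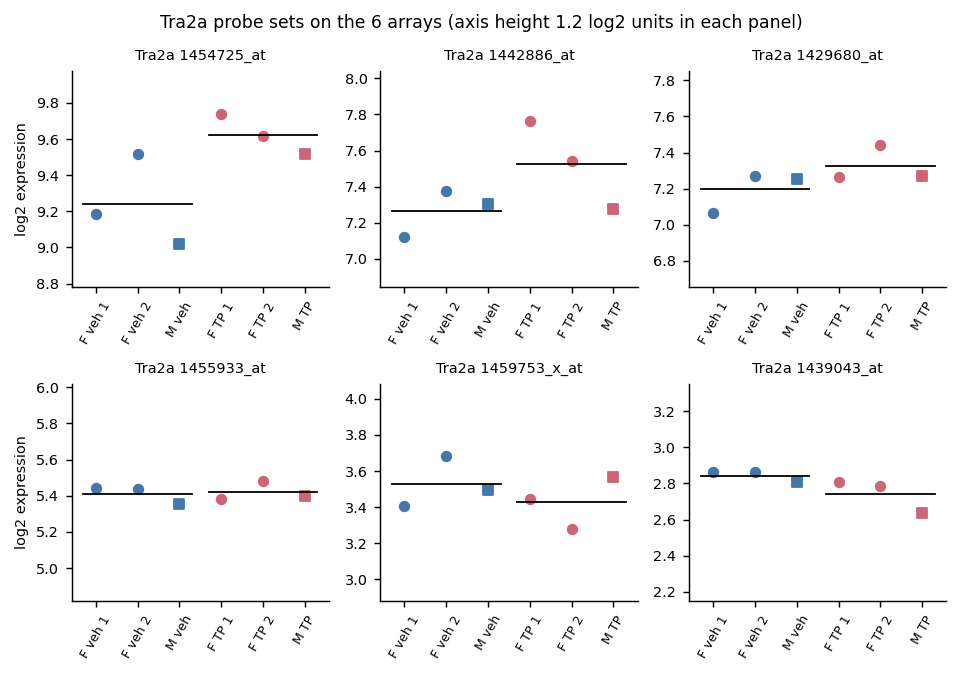
Log2 expression of the 6 Tra2a probe sets on the 6 arrays, with vehicle in blue, TP in red, circles for females, squares for males and lines at the mean of each treatment. The axes all span the same height. Probe set 1454725_at is the only one whose TP arrays all lie above its vehicle arrays, and 1455933_at differs by 0.01.

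Probe set 1442886_at of Tra2a read 7.12, 7.37 and 7.30 on the vehicle arrays and 7.76, 7.54 and 7.28 on the TP arrays, in the same order. Both female TP arrays were above all vehicle arrays, and the male TP array lay among the vehicle arrays. Its TP difference was 0.40 in females, -0.02 in males and 0.26 ± 0.12 (SE) over both. Probe set 1429680_at read 7.07, 7.27 and 7.25 with vehicle and 7.26, 7.44 and 7.27 with TP, and its groups overlapped, with a difference of 0.13 ± 0.09 (SE). Probe set 1455933_at stayed between 5.35 and 5.48 on all arrays and differed by 0.01 ± 0.06 (SE). The remaining sets, 1459753_x_at and 1439043_at, both differed by -0.10 and were dim, meaning that their mean over the arrays was under the 40th percentile of all probe sets, 4.98. The probe sequences were not given, so which Tra2a transcripts each set reads was not analysed here.

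Tra2b, the close relative of Tra2a, had 5 probe sets. The brightest, 1427432_a_at, read 11.64, 11.94 and 11.63 with vehicle and 11.83, 11.81 and 11.83 with TP. Its groups overlapped because female vehicle array 2 was the highest of all. Probe set 1419543_a_at read 10.56, 10.59 and 10.51 with vehicle and 10.64, 10.65 and 10.73 with TP, so that the groups did not overlap. Its TP difference was 0.12 ± 0.06 (SE), or 1.09-fold. Probe set 1441466_at read 5.68, 5.56 and 6.03 with vehicle and 6.06, 6.04 and 5.91 with TP. Its TP difference was 0.43 in females and -0.12 in males, and its male vehicle array sat with the female TP arrays. The other Tra2b sets differed by -0.0024 (1446496_at) and 0.03 (1444509_at, dim).

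Srsf12, also known as SRrp35 and described as an antagonist of other SR proteins in splice site choice, had 1 probe set, 1437168_at. It read 8.47, 8.88 and 8.38 with vehicle and 9.003, 8.88 and 9.03 with TP. The groups did not overlap, but female vehicle array 2 and female TP array 2 were 0.0038 log2 units apart, while the other vehicle arrays lay well below. The TP difference was 0.27 in females, 0.64 in males and 0.39 ± 0.13 (SE) over both, or 1.31-fold. Without female vehicle array 2 it was 0.55. The residual SD of this set was 0.21. The Pearson r between Srsf12 and the brightest Tra2a set was 0.94 over the 6 arrays, and 232 of 23308 probe sets that were not dim had an r over 0.95 with that Tra2a set. The closest to Tra2a were those of Anxa7, Coprs and Vamp4, each with an r of 1.00. The closest to Srsf12, with 255 of 23311 over 0.95, were those of Psmc6 (1.00), Grik1 (1.00) and Ube2w (0.99). With 6 points that share treatment and sex, these coefficients are a description.

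**Figure D2:**
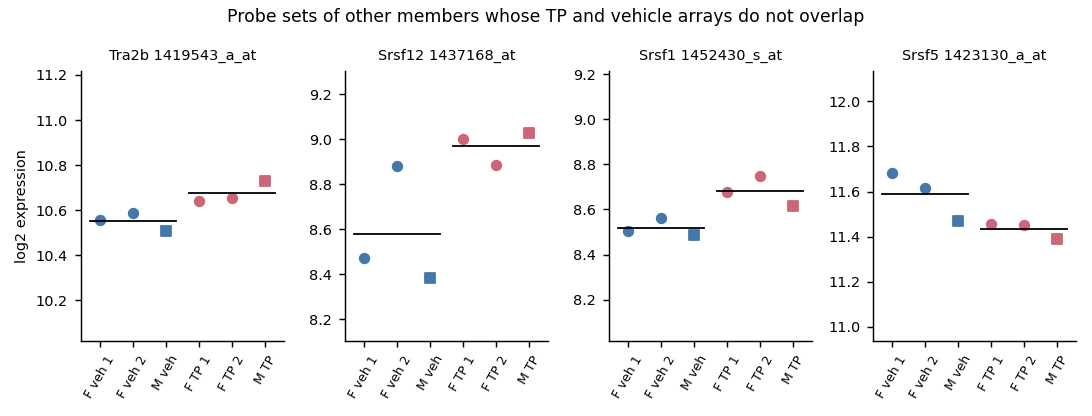
Log2 expression on the 6 arrays for 4 probe sets of Tra2b, Srsf12, Srsf1 and Srsf5 whose TP and vehicle arrays did not overlap, with vehicle in blue, TP in red, circles for females, squares for males and lines at treatment means. Srsf5 is lower with TP, and in Srsf12 female vehicle array 2 lies beside female TP array 2.

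Srsf1, the founding SR protein that also acts in mRNA export and translation, had 7 probe sets, of which 1457136_at was dim. Probe set 1452430_s_at read 8.50, 8.56 and 8.48 with vehicle and 8.68, 8.75 and 8.61 with TP, and its groups did not overlap. It was higher with TP by 0.16 ± 0.06 (SE), or 1.12-fold. The other 6 sets of Srsf1 differed by -0.12 to 0.11 with overlapping groups. Sets 1428100_at and 1430982_at differed by 0.08 and 0.11, 1434972_x_at and 1428099_a_at by 0.06 and 0.09, and 1453722_s_at was lower with TP in both sexes, with a difference of -0.08 over both. Sets with _s_at or _x_at in the name can read sequence shared with other transcripts, so their values are uncertain as measures of Srsf1 alone. The same limit holds for such sets of Tra2a, Srsf2, Srsf3, Srsf6 and the genes outside the members.

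Srsf2, which acts both in splicing and in the release of paused RNA polymerase, had 4 probe sets with TP differences from -0.13 to 0.17. The highest, 1427504_s_at, read 11.01, 11.21 and 10.96 with vehicle and 11.20, 11.22 and 11.27 with TP. Its groups overlapped through female vehicle array 2. The lowest, 1427816_at, read 7.17, 6.71 and 6.98 with vehicle and 6.82, 6.71 and 6.94 with TP, again with overlap. Its difference was 0.02 without female vehicle array 1, which was the highest array. The sets 1452439_s_at and 1415807_s_at differed by -0.01 and 0.07. Srsf3, the smallest SR protein, which links splicing to export and polyadenylation, had 6 probe sets, and all 6 were higher with TP over both sexes, by 0.04 to 0.19. Sets 1416150_a_at, 1416152_a_at, 1454993_a_at, 1434512_x_at and 1416151_at differed by 0.09, 0.10, 0.11, 0.06 and 0.04. Without female vehicle array 1 the difference of 1434512_x_at was -0.03. All 6 had overlapping groups. The largest difference was in 1438215_at, which read 6.997, 7.20 and 7.01 with vehicle and 7.42, 7.21 and 7.15 with TP.

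Srsf5, also known as SRp40, was the only member with a probe set whose TP arrays were all below its vehicle arrays. Its probe set 1423130_a_at read 11.68, 11.62 and 11.47 with vehicle and 11.46, 11.45 and 11.39 with TP. The groups did not overlap, with a margin of 0.014 log2 units between the male vehicle array and female TP array 1. The difference was -0.19 in females, -0.08 in males and -0.16 ± 0.06 (SE) over both, or 0.897-fold. Srsf4, a larger SR protein with a long arginine-serine domain, read 9.85, 9.98 and 9.83 with vehicle and 9.85, 9.87 and 9.73 with TP in 1448778_at, with overlap and a difference of -0.07 ± 0.07 (SE). The 4 sets of Srsf6, an SR protein that regulates tau exon choice, differed by -0.08 to 0.05 and all overlapped. Sets 1448454_at and 1447898_s_at differed by 0.03 and 0.05, and 1416721_s_at and 1416720_at by -0.08 and -0.02. The sign of 1447898_s_at turned without the male TP array, at -0.02, and that of 1416720_at without female TP array 2, at 0.05.

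**Figure D3:**
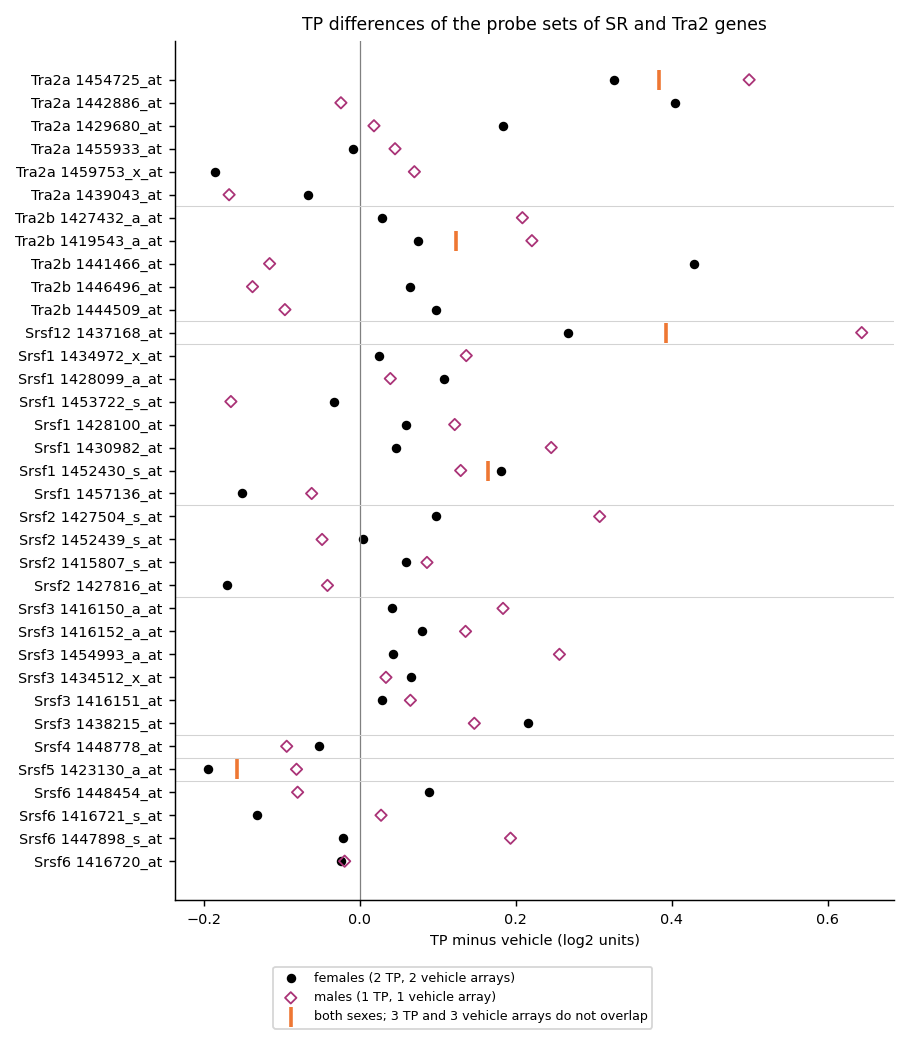
TP minus vehicle in log2 units for the 35 member probe sets, with females as filled circles (2 against 2 arrays), males as open diamonds (1 against 1) and an orange bar at the value over both sexes for the 5 sets whose TP and vehicle arrays did not overlap. The sign was opposite in the sexes in 10 sets, and the male values of Srsf12 and Tra2a 1454725_at lie farthest to the right.

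Over the 35 probe sets, the TP difference was positive in 24 and negative in 11, with a median of 0.06, beside a median of -0.02 and 44.2% positive over all 45037 probe sets. Of the members, 4 sets had all TP arrays above all vehicle arrays, beside 6.83% of all probe sets, and 1 had them below, beside 8.35%. Of these 5 sets none was dim. Among the 31 members that were not dim the counts were the same, beside 8.48% above and 9.15% below over all such probe sets. Since this contrast chose the members, nothing is read from these shares. The sign of the TP difference was the same in females and males in 25 sets and opposite in 10.

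These counts were also taken with single arrays left out. Leaving out an array can only keep or raise them, since fewer arrays must then lie apart, so the direction of the change was fixed in advance. Without the male TP array, 10 member sets had the female TP arrays above all vehicle arrays, beside 12.1% of all probe sets, and 1 had them below, beside 14.6%. The 6 sets gained were 1442886_at of Tra2a, 1441466_at of Tra2b, 1434972_x_at and 1428099_a_at of Srsf1, 1438215_at of Srsf3 and 1448454_at of Srsf6. Without female vehicle array 2, 14 were above, beside 14.0%, and 4 below, beside 17.2%. That array was the highest of the vehicle arrays in 21 of the 31 members that were not dim, beside 44.5% of all such probe sets. The male vehicle array was the lowest in 19, beside 44%. When each array was centred on its median, Tra2a 1454725_at and Srsf12 no longer had groups apart. The 2 sets above that remained, beside 6.53% of all probe sets, were Tra2b 1419543_a_at and Srsf1 1452430_s_at. The TP differences of Tra2a 1454725_at and Srsf12, 0.39 and 0.40, hardly moved.

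The probe sets of a gene were then set against one another by the distance between the highest and lowest TP difference. For Tra2a this spread was 0.48, beside a median of 0.28 over the 244 genes with 6 probe sets, and 8.61% of those genes had a spread at least as wide. The spread is set by 1454725_at, whose TP difference chose Tra2a, so nothing is read from that share. Without the dim sets the spread was 0.37, and without the male TP array 0.59. Srsf3 had the same number of sets and a spread of 0.15, and 90.2% of the 244 genes were at least as wide. Tra2b, Srsf1, Srsf2 and Srsf6 had spreads of 0.25, 0.29, 0.29 and 0.13, beside medians of 0.25, 0.30, 0.21 and 0.21 over genes with equal numbers of sets. The Srsf2 spread was 0.13 without female vehicle array 1 and 0.49 without female vehicle array 2. Without the male TP array those of Tra2b and Srsf6 were 0.40 and 0.22. Probe sets of opposite sign, as in Tra2a, occurred in 90.2% of genes with 6 sets, so that disagreement in sign alone was common. The sets of Srsf3 all had the same sign, but 1434512_x_at turned negative without female vehicle array 1. Sets of a gene are not independent and this contrast chose the members, so nothing is read from the shares beside Srsf3.

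Males were compared with females in an additive model of sex and treatment. Member sets were lower in males in 25 of 35, with a median difference of -0.06, beside 52.1% lower and a median of -0.01 over all probe sets and -0.04 over those not dim. None passed an adjusted p of 0.05 in limma with Benjamini-Hochberg adjustment, beside 0.0222% of all probe sets, and 2 had an unadjusted p under 0.05, beside 12.1%. Both male arrays lay below all 4 female arrays in 4 sets, beside 11.2%, and above them in 0, beside 8.58%. The count of 4 of 35 is close to the background.

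The 4 sets were in Srsf6, Srsf4 and Srsf1. Srsf6 1416721_s_at read 10.82, 10.88, 10.68 and 10.76 on the female arrays (vehicle 1 and 2, TP 1 and 2) and 10.57 and 10.60 on the male vehicle and TP arrays. Both males were below every female, by -0.20 ± 0.07 (SE, limma adjusted p = 0.373), the smallest adjusted p of the members. The other Srsf6 sets differed by -0.09 to 0.02. Srsf4 1448778_at differed by -0.11 (adjusted p = 0.556, limma), and Srsf1 1428099_a_at and 1434972_x_at by -0.11 and -0.10 (adjusted p = 0.551 and 0.564, limma). The largest sex difference was in Tra2a 1454725_at, at -0.25 ± 0.10 (SE, limma adjusted p = 0.413), with overlapping sexes. The female and male means of that set were 9.51 and 9.27. Without the male TP array the differences of Srsf6 1416721_s_at and Tra2a 1454725_at were -0.27 and -0.33 and did not pass (limma adjusted p = 0.558 and 0.614). Those of Srsf4, Srsf1 1428099_a_at and Srsf1 1434972_x_at were -0.09, -0.08 and -0.16 without it, and again 0 members passed.

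**Figure D4:**
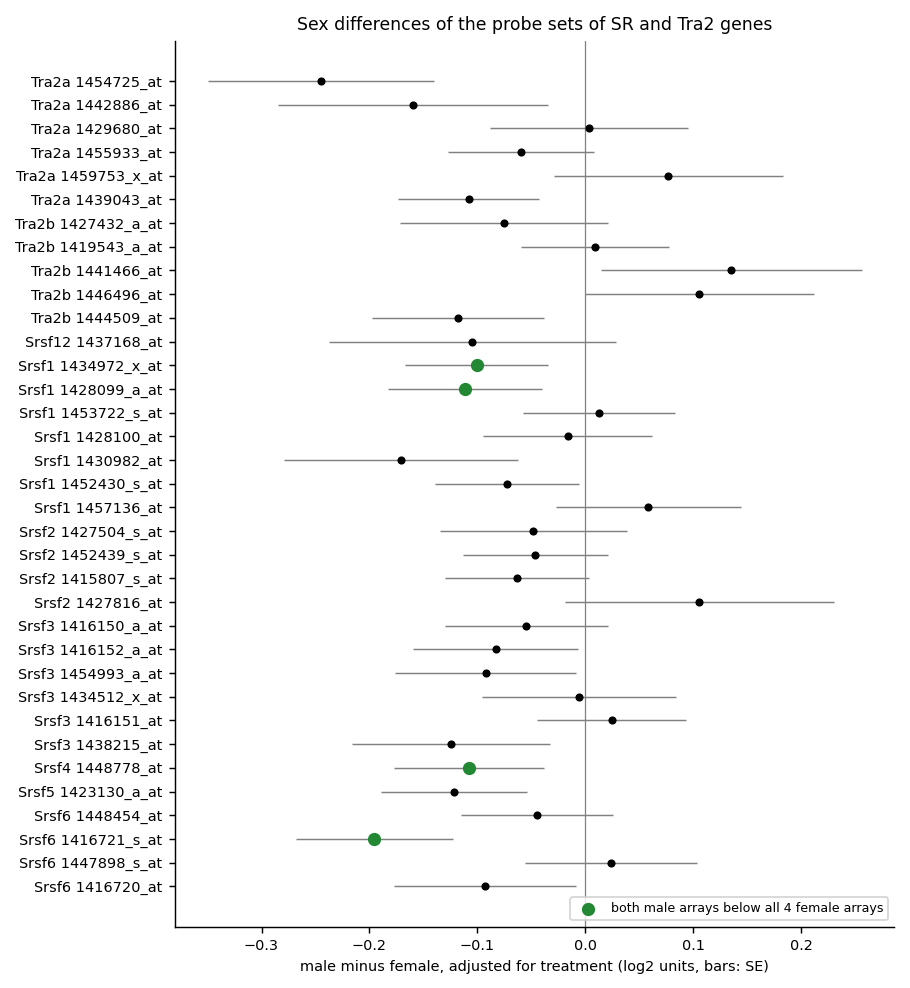
Male minus female in log2 units for the 35 member probe sets, adjusted for treatment, with bars of 1 SE. Green points are the 4 sets in which both male arrays lay below all 4 female arrays. No set passed the adjusted test, and 25 of 35 lie to the left of 0.

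Whether TP acted unequally in the sexes was tested as the TP difference in males minus that in females, with the single male arrays assumed to vary like the female ones. None of the 35 sets passed (limma, Benjamini-Hochberg), beside 0.0155% of all probe sets, and 1 had an unadjusted p under 0.05, beside 4.93%. That set was Tra2b 1441466_at, at -0.54 ± 0.15 (SE, limma adjusted p = 1.00). Tra2a 1442886_at, whose female difference was 0.40, gave -0.43 ± 0.21 (SE, limma adjusted p = 1.00). Srsf12, larger in males, gave 0.38 ± 0.25 (SE, limma adjusted p = 1.00). This test rests on the male TP array and cannot be made without it. The deviation of each probe set from the mean of its gene was also compared between the sexes. None of 32 sets passed (limma, Benjamini-Hochberg), beside 0.0272% of 25762, and 0 had an unadjusted p under 0.05, beside 10.3%. The smallest adjusted p of the members was 0.484, in Tra2a 1454725_at, and without the male TP array it was 0.583.

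Other genes of the splicing machinery were taken in 6 lists and tested for TP over all 45037 probe sets with limma. The lists were chosen with earlier results of these data known, so the shares given for them below are a description. Of these lists 0 probe sets passed an adjusted p of 0.05, beside 0.00888% of all. At an unadjusted p under 0.05 there were 26 of 102 among other SR and SR-related proteins, 3 of 29 among SR protein kinases and import factors, 4 of 46 in the core spliceosome, 10 of 61 among hnRNP proteins, 8 of 74 among neuronal and tissue splicing regulators and 2 of 17 in nonsense-mediated decay and the exon junction complex. Over all probe sets 12.3% had such a p. None of the 6 lists had a probe set past the adjusted sex or interaction test either. Unadjusted, in the same order and out of the same numbers of sets, they held 9, 4, 5, 6, 8 and 1 for sex. For the interaction they held 7, 1, 0, 1, 5 and 1. Over all probe sets, 12.1% had an unadjusted p under 0.05 for sex and 4.93% for the interaction (limma).

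Several relatives of the members had probe sets that were higher on every TP array. Among 102 probe sets of 21 other SR and SR-related genes, 25 (24.5%) had all TP arrays above all vehicle arrays and 3 (2.94%) had them below, beside 6.83% and 8.35% of all probe sets. Among the 97 sets of the list that were not dim the counts were the same, beside 8.48% and 9.15% of all such probe sets. Sets of the same gene are not independent. The median difference over the 102 sets was 0.09. The 25 came from 10 genes, and 7 of them were from the 12 sets of Rbm39, a U2AF-related splicing factor, and 4 from the 8 sets of Luc7l2, a U1 snRNP-associated protein. When each gene was taken by its brightest set, 5 of 21 were above, beside 4.69% of all 18193 genes. Over all 102 sets, 45 were above without the male TP array, beside 12.1% of all probe sets, and 44 without female vehicle array 2, beside 14%. The count of 3 below was 5 without the male TP array or female vehicle array 1, beside 14.6% and 12.8%. Without female TP array 2 it was 7, beside 14.8%. The difference between this list and the members was not tested. Rbm39 1456386_at read 7.33, 7.36 and 7.23 with vehicle and 7.86, 7.80 and 7.69 with TP, a difference of 0.48 ± 0.06 (SE, limma adjusted p = 0.181). Rbm25 1425522_at, of a regulator of Bcl-x splicing, read 5.30, 4.61 and 5.21 with vehicle and 5.59, 5.64 and 5.82 with TP. It differed by 0.64 ± 0.16 (SE, limma adjusted p = 0.259). Female vehicle array 2 was its lowest array and lay under 4.98, the cut for dim sets. With an intensity trend in limma, 4 sets of this list passed, among 138 over all probe sets. They were Rbm39 1456386_at, Rbm25 1437862_at, Luc7l2 1436165_at and Pnn 1423325_at. Rbm25 1425522_at did not pass with the trend (limma adjusted p = 0.077). The brightest Rbm25 set differed by 0.05 with overlapping groups. The Rbm39 set then had an adjusted p of 0.0051 (limma).

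The kinases that phosphorylate SR proteins, listed with their import factor Tnpo3, had 1 of 29 probe sets above and 0 below, with a median difference of -0.01. Without the male TP array 7 were above, and without female TP array 2 or female vehicle array 2, 5. The count below was 4 without female TP array 1 and 2 without female TP array 2. With all arrays, the set above was Dyrk1a 1426226_at, of a kinase that phosphorylates several SR proteins, at 0.52 ± 0.08 (SE, limma adjusted p = 0.187). It passed with the intensity trend (limma adjusted p = 0.011). The 3 sets of Dyrk1a differed by -0.06 to 0.52, and the brightest of them by 0.10 with overlapping groups. The core spliceosome, which carries out the splicing reaction, had 10 of 46 sets (21.7%) below and 1 above, and the other 35 overlapped. Its median was -0.04. On leaving out the male TP array, 11 were below and 2 above, and without female TP array 2 or female vehicle array 2, 4 were above. The largest differences among its sets that were apart and not dim were -0.28 in Sf3a1 1446687_at, of a U2 snRNP subunit, and -0.26 in Prpf19 1460633_at, of a spliceosome-activating ubiquitin ligase (limma adjusted p = 0.238 and 0.275). By the brightest set of each gene, 2 of 15 were below, near the 10.3% of all 18193 genes counted that way. The hnRNP proteins, which often oppose SR proteins at splice sites, had 9 of 61 sets (14.8%) above and 0 below, led by Hnrnpr 1437526_x_at at 0.31 and Hnrnph2 1415963_at at 0.25. Their median was 0.05, and 16 were above without the male TP array, 14 without female TP array 2 and 28 without female vehicle array 2. Neuronal and tissue splicing regulators had 7 of 74 above and 6 below, with Nova1 1452245_at at 0.24 and Celf4 1426930_at at 0.21, and a median of 0.04. Of them 16 were above and 11 below without the male TP array, and on leaving out a female array 11 to 18 and 6 to 10. Decay and exon junction genes had 3 of 17 above and 1 below, with Smg1 1428539_at at 0.16 and Casc3 1416736_at at -0.12, and a median of -0.02. The count below was 4 without female TP array 1. None of these passed the adjusted test in limma. Leaving out arrays also raised the shares over all probe sets, to 12.1% above and 14.6% below without the male TP array. On leaving out a female array they were 10.1% to 14% above and 12.1% to 17.2% below.

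**Figure D5:**
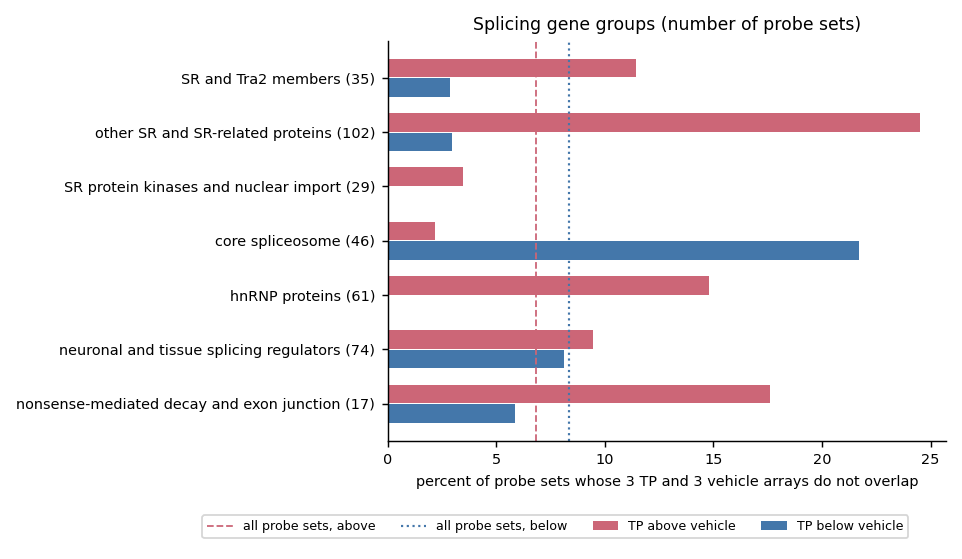
Percent of probe sets whose 3 TP arrays all lie above (red) or all below (blue) the 3 vehicle arrays, for the members and 6 lists of other splicing genes, with the number of probe sets in brackets. The dashed and dotted lines mark 6.83% and 8.35% over all probe sets. Other SR and SR-related proteins reach 24.5% above and the core spliceosome 21.7% below, and the members' bars describe the contrast that chose them. The lists were also chosen with earlier results of these data known, so their bars are a description.

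Markers of other tissues varied among the TP arrays. The mean level of 6 pituitary markers ran from 4.92 to 5.29 on the vehicle arrays and from 4.95 to 6.03 on the TP arrays, and that of 7 meninges and bone markers from 7.47 to 7.56 and from 7.15 to 7.99. Of 10 pituitary probe sets, 3 passed the interaction test upward, and of 12 meninges and bone sets 1 passed it downward (limma, adjusted p of 0.05). Over all probe sets 0.0155% passed that test, which rests on the male TP array. Choroid plexus markers had 2 of 11 sets below with TP, blood markers 1 of 8 above. Neuron markers had 4 of 12 above and 2 below, astrocyte markers 4 of 20 above and 3 below, microglia markers 0 above and 1 of 8 below, and oligodendrocyte lineage markers 0 of 14 in either direction. Beside these counts, 6.83% of all probe sets were above and 8.35% below. The part of these tissues in the values of the SR and Tra2 genes was not tested.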

How the data were processed

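Pooled whole-brain RNA, from 6 mice per array, was measured on 6 arrays. The deposited values are log2 expression per probe set. The authors made them with RMA (background correction, normalization between arrays and summarizing of probes), per the submitters' processing notes, with no version given in the sources used here. RMA can compress differences at low signal. Genes were assigned by the platform annotation supplied for the probe sets, and promoter windows came from RefSeq (GRCm38.p6). Of 45101 probe sets, 64 array controls were left out. Groups came from the labels.

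Tests were run in R 4.3.3 using limma 3.58.1 (eBayes after lmFit, two-sided, Benjamini-Hochberg over 45037 probe sets, or over 25762 for deviations within a gene), with sex and treatment as additive terms or 4 groups for the interaction. No array has counts, so precision is limited by the 6 arrays. In none of the 15 pairs of arrays did more than 215 probe sets share a value. The scripts were checked on simulated data. Members and lists were chosen with earlier results of these data known.

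All member probe sets are named. From each list the text names up to 3 genes past the adjusted threshold, otherwise up to 2 with the largest TP difference among sets that were not dim and did not overlap. It names the 3 closest patterns to Tra2a and Srsf12, and 4 sex-linked genes. Rbm39 and Luc7l2 as sources of the list's count, and the genes passing with an intensity trend, were named after their values were seen. Alternatives were quantile normalization again, median centring, leaving out dim sets or single arrays, an intensity trend, the brightest set per gene and a replicate block. The alternatives for the lists were chosen after seeing the data. Tables and plots used pandas 2.3.3 and matplotlib 3.10.9 under Python 3.11.15.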

Additional observations from a re-analysis of the deposited data

How the results depend on the processing

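The 6 arrays, and the replica arrays of uncertain origin, limit every value. Over all settings tried, the member counts past the adjusted test stayed at 0 for sex, interaction and deviation (limma), with smallest adjusted p-values of 0.165 to 0.598 for sex, 0.675 to 1.00 for the interaction and 0.321 to 0.630 for deviation. All 311 alternative TP values of single member sets moved by no more than the residual SD of the additive model of sex and treatment. In this layout leaving out an array cannot move a TP difference by more than that SD. Leaving out dim sets and the replicate block cannot change a TP difference, and median centring shifted all of them by the same small amount. For all those settings the outcome was fixed in advance, and nothing is read from it. Only quantile normalization again could move each set by its own amount. Of the 311 values 14, in 9 probe sets, took the other sign, the largest of them 0.07 in size. None of these 9 sets had TP and vehicle arrays apart. The count of 4 member sets with TP above vehicle was 2 after median centring, beside 6.53% of all probe sets. Quantile normalization again gave 6 above, beside 7.8%. Without the male TP array the count above was 10, beside 12.1%. On leaving out each female array it was 4 to 14, beside 10.1% to 14%. The count of 1 below was 3 after quantile normalization again, beside 8.47%. On leaving out each female array it was 2 to 4, beside 12.1% to 17.2%. The Tra2a spread of 0.48 was 0.37 without dim sets, 0.59 without the male TP array and 0.46 to 0.60 on leaving out a female array. Without the male TP array the Tra2b spread was 0.40 and that of Srsf6 0.22. The 25 of 102 SR-related sets above were 5 of 21 genes by the brightest set of each gene, beside 4.69% of all genes. They were 45 without the male TP array and 26 to 44 on leaving out each female array. The shares over all probe sets then rose too, as given for the members. The 10 of 46 core spliceosome sets below were 2 of 15 genes by the brightest set, beside 10.3% of all genes. On leaving out a female array they were 10 to 13, beside 12.1% to 17.2% of all probe sets. An intensity trend raised the SR-related sets past the adjusted p from 0 to 4 and the kinase sets from 0 to 1 (limma). The causes were not tested.

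The difference between array 1 and array 2 was taken in TP females and in vehicle females. Over all probe sets these differences correlated at r = 0.11, which does not establish that same-numbered arrays are paired. With the replicate number as a block, 0 members passed for sex, interaction or deviation, with smallest adjusted p-values of 0.598, 0.886 and 0.593 (limma), and over all probe sets 7 passed for sex.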
